A study of Mus musculus with 4 samples.

Results

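The genes described here are the primary (azurophil) granule genes of neutrophil precursors. They were named by symbol as Elane, Prtn3, Ctsg, Mpo, Ms4a3 and Prss57 and looked up in the deposited expression table. Of these 6 genes, 5 had a row among the 24768 genes used. Ms4a3 had none and is not analysed here. The genes were selected on their FPKM in these 4 libraries, being near 0 in wild-type cells and high in Tbx21-KO cells, so their difference between the groups is given as a description, with no test.

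The study compared mouse T cells that the labels call cDNT cells (DNT is a usual short form for double-negative T) in 2 groups of 2 RNA sequencing libraries each. The first group is called Tbx21-KO in the sample labels and a knockdown in the design text, and the second is called wild type (WT). Tbx21 encodes T-bet, a T-box factor that drives interferon-gamma and cytotoxic genes. The sources used here do not give strain, age, culture conditions, the way the gene was targeted or any sorting gate. No label says that libraries of a group came from separate animals or cultures, so p-values measure only how far these libraries differ, and that spread may be technical.

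Azurophil granules are the first granules that a developing neutrophil makes, at the promyelocyte stage. Their serine proteases and myeloperoxidase are transcribed in that window and in early granulocyte-monocyte progenitors, and the transcripts are largely gone in mature neutrophils while the proteins stay in the granules. The proteases are made as inactive precursors, are trimmed to the active form by cathepsin C, and are stored bound to the proteoglycan serglycin. Elane encodes neutrophil elastase, Prtn3 proteinase 3, Ctsg the chymotrypsin-like protease cathepsin G, and Prss57 a further neutrophil serine protease. Mpo, grouped with them here, is not a protease but the haem enzyme that makes hypochlorous acid from hydrogen peroxide.

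The genes lie at 3 loci. On GRCm38 (GENCODE M21), Elane is at chr10:79886247-79888215 on the plus strand, Prtn3 at chr10:79874476-79883174 on the plus strand and Prss57 at chr10:79781474-79790961 on the minus strand. Ctsg is at chr14:56099881-56102574 on the minus strand, in the cluster of granzyme and mast cell protease genes. Mpo is at chr11:87793581-87804413 on the plus strand, in the cluster of peroxidase genes. All 5 are protein-coding, and the values sum over their exons.

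The promoters of 4 of the 5 genes are shown because the genes were high in the same libraries from 3 separate loci. Each runs from 250 bases before to 50 bases after the RefSeq start site (build GRCm38.p6), 5′ to 3′ on the gene's own strand. Capitals mark GAGGAA, the core bound by PU.1 and related ETS factors, and AGGAAGT, an ETS form that was chosen after the promoters were seen. Both strands were searched, and where both motifs overlap their capitals run together.
Prtn3 promoter, chr10:79879417-79879716, plus strand: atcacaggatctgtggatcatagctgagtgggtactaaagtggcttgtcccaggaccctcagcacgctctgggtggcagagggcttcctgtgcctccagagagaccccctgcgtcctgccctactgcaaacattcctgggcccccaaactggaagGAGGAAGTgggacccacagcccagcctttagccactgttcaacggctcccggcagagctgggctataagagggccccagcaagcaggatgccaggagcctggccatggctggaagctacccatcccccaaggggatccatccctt
Elane promoter, chr10:79886062-79886361, plus strand: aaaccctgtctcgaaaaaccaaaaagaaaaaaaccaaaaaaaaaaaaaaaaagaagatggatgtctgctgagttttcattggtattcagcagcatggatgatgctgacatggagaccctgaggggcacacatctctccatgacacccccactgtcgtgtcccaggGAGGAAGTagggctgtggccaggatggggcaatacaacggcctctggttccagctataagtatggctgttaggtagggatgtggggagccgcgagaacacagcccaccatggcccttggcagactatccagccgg
Mpo promoter, chr11:87793534-87793833, plus strand: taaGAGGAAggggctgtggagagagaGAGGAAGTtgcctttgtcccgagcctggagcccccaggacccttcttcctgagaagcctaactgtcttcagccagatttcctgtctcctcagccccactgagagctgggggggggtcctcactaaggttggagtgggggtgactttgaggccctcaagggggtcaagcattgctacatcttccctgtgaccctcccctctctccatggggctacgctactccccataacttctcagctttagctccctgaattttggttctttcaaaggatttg
Ctsg promoter, chr14:56102525-56102824, minus strand: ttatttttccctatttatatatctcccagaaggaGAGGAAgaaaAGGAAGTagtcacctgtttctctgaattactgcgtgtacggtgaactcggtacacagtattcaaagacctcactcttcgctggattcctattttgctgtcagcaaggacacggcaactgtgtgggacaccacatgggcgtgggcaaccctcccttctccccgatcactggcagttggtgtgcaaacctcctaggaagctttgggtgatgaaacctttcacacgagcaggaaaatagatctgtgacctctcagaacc

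GAGGAA was present in 4 of these 4 promoters, against 28.3% of all 32851 promoters of the same length. It began at base -95 from the start in Prtn3, at -85 in Elane, at -247 and -224 in Mpo and at -216 in Ctsg. AGGAAGT was in 4 of 4, against 9.35% of all promoters, but it was chosen after the promoters were seen, so that count is no support. In Prtn3, Elane and Mpo it overlaps a GAGGAA match. AACNG, the core of MYB sites, was in 4 of 4 as well, but 80.3% of all promoters hold it, and the longer form AACNGTT was in 0 of 4 and in 4.45% of all promoters. TTGCNNAA, a C/EBP form, was in 0 of 4 and in 10.8% of all promoters. TGTGGT, the RUNX core, and TATAAA, the letters of the TATA box, were each in 1 of 4, in Ctsg, against 16.8% and 13.6% of all promoters. Both matches in Ctsg were on the opposite strand, TGTGGT at -79 and TATAAA at -237, so the latter is far from the start. Prtn3 and Elane share CTATAAG, chosen after the promoters were seen, at -33 and -32, a string in 1.73% of all promoters. Such matches describe letters in these windows and do not show binding.

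The deposited values are FPKM, fragments scaled to gene length and library size, as the authors computed them. With the exon lengths of the annotation, 96.8% to 97.3% of the values under 20 reads were whole read numbers within 0.1 read. The totals this implies were 23342154 and 24032714 reads in Tbx21-KO 1 and 2, and 24966656 and 24129652 reads in WT 1 and 2, and need not be the full sequencing depth. Tbx21 itself was at 2.29 and 2.41 FPKM in Tbx21-KO 1 and 2, against 13.2 and 11.7 FPKM in WT 1 and 2, with a log2 difference of -2.01 (SE 0.08, limma adjusted p = 8.21e-05). In a fit of log2(FPKM + 1) over the 11013 genes with a mean of at least 1 FPKM, 30.1% were called higher and 23.0% lower in Tbx21-KO at an adjusted p under 0.05 (limma), 53.1% in all. All log2 differences here are Tbx21-KO minus WT on that scale, which understates the change of genes near 0. Counts of called genes in the lists below are to be read beside the shares of all genes, 30.1% higher and 23.0% lower. They were not tested against these shares.

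Elane, neutrophil elastase, was at 1087 and 1057 FPKM in Tbx21-KO 1 and 2, against 0.0814 and 0.548 FPKM in WT 1 and 2. It ranked 27 and 28 among all 24768 genes in the Tbx21-KO libraries, and 15908 and 11785 in the WT libraries. The WT values rest on 2 and 13 reads. The 2 WT libraries differed for Elane: the ratio of WT 2 to WT 1 was 6.73, with a 95% interval of counting error of 1.52 to 61.4 (exact binomial).

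Prtn3, proteinase 3, was at 393 and 387 FPKM in Tbx21-KO 1 and 2, against 0.162 and 0.215 FPKM in WT 1 and 2, where it rests on 7 and 9 reads. Ctsg, cathepsin G, was at 306 and 307 FPKM in Tbx21-KO 1 and 2, against 1.74 and 1.73 FPKM in WT 1 and 2. In WT this was 45 and 43 reads, more than for any of the other 4 genes. Mpo, myeloperoxidase, was at 118 and 111 FPKM in Tbx21-KO 1 and 2, against 0.14 and 0.145 FPKM in WT 1 and 2, from 12 reads in each WT library. Prss57 was at 11.2 and 11.6 FPKM in Tbx21-KO 1 and 2, against 0.0282 and 0.0437 FPKM in WT 1 and 2, from 2 and 3 reads. For each of the 5 genes both Tbx21-KO libraries were far above both WT libraries, as the choice of the genes required. Of all genes tested, 43.7% had both Tbx21-KO libraries above both WT libraries.

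**Figure D1:**
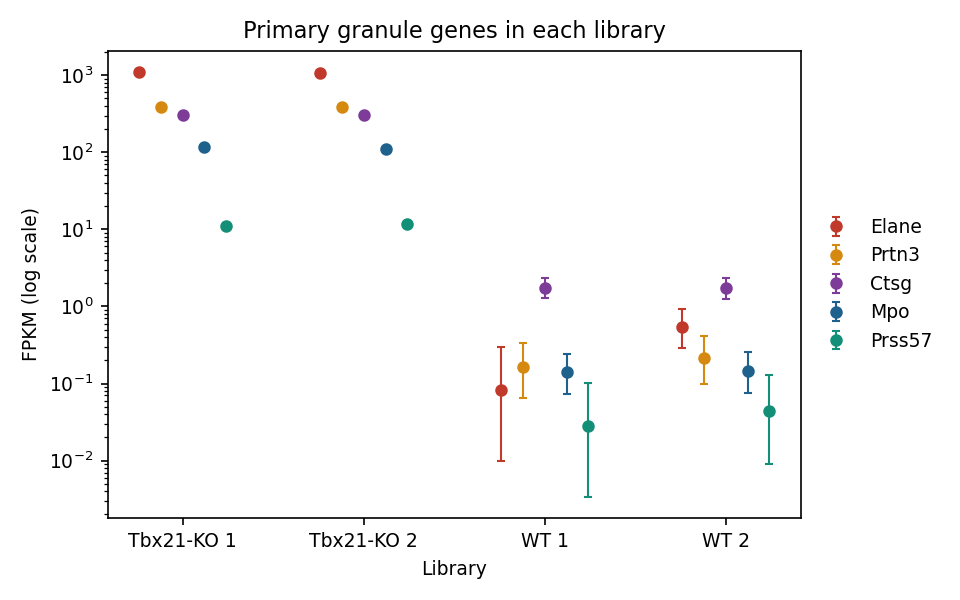
FPKM of the 5 genes on a log axis in each of the 4 libraries, with bars for the exact Poisson 95% interval of counting error. The Tbx21-KO values run from 11.2 for Prss57 to 1087 for Elane in the same order in both libraries, and the WT values lie between 0.0282 and 1.74.

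By means, the Tbx21-KO level was 3409 times that of WT for Elane, 2067 times for Prtn3, 803 times for Mpo, 317 times for Prss57 and 177 times for Ctsg. From the recovered reads of both libraries together, the ratio for Elane had a 95% interval of 2093 to 6169 and that for Ctsg one of 143 to 220.4. The interval for Prss57 was 136 to 981, since it rests on 5 WT reads in all. These intervals cover counting error only. Of the 5 genes, Prss57 had the lowest Tbx21-KO level, with log2 differences of 9.70 for Elane, 8.36 for Prtn3, 6.81 for Ctsg, 6.66 for Mpo and 3.58 for Prss57. Among all genes tested, 0.890% had a Tbx21-KO mean at least 100 times the WT mean. All 5 genes passed the filter on low values, but Ctsg alone had a WT mean of at least 1 FPKM, so the other 4 were kept by their Tbx21-KO values.

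Within Tbx21-KO the order of the levels was Elane at 1072 ± 21.6 FPKM, Prtn3 at 390 ± 3.91, Ctsg at 307 ± 1.08, Mpo at 115 ± 5.24 and Prss57 at 11.4 ± 0.34 FPKM (SD, n = 2 each). Each step in that order was larger than the spread between the libraries. In WT the order was Ctsg at 1.73 ± 0.01 FPKM, Elane at 0.314 ± 0.33, Prtn3 at 0.189 ± 0.04, Mpo at 0.143 ± 0.003 and Prss57 at 0.036 ± 0.01 FPKM (SD, n = 2 each). The SD of Elane spans the WT means of Prtn3, Mpo and Prss57, and the counting intervals of Prtn3 and Mpo overlapped in both WT libraries.

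Summed over the 5 genes, the level was 1915 and 1874 FPKM in Tbx21-KO 1 and 2, which is 0.613% and 0.574% of the library's summed FPKM. In WT 1 and 2 it was 2.16 and 2.68 FPKM. As reads, this was 58427 and 58663 in Tbx21-KO 1 and 2 and 68 and 80 in WT 1 and 2. In bulk RNA, more cells of a kind and more RNA per cell cannot be told apart.

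The make-up of this sum differed between the groups. Elane gave 56.8% and 56.4% of it in Tbx21-KO 1 and 2, against 3.77% and 20.5% in WT 1 and 2. Ctsg gave 15.96% and 16.4% of it in Tbx21-KO 1 and 2, against 80.9% and 64.4% in WT 1 and 2. Per FPKM of Prtn3, Ctsg was at 0.779 and 0.794 in Tbx21-KO 1 and 2 and at 10.8 and 8.01 in WT 1 and 2. The WT shares rest on the few reads given above, and with 2 libraries a group the smallest exact permutation p is 0.33, so this difference was not tested.

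**Figure D2:**
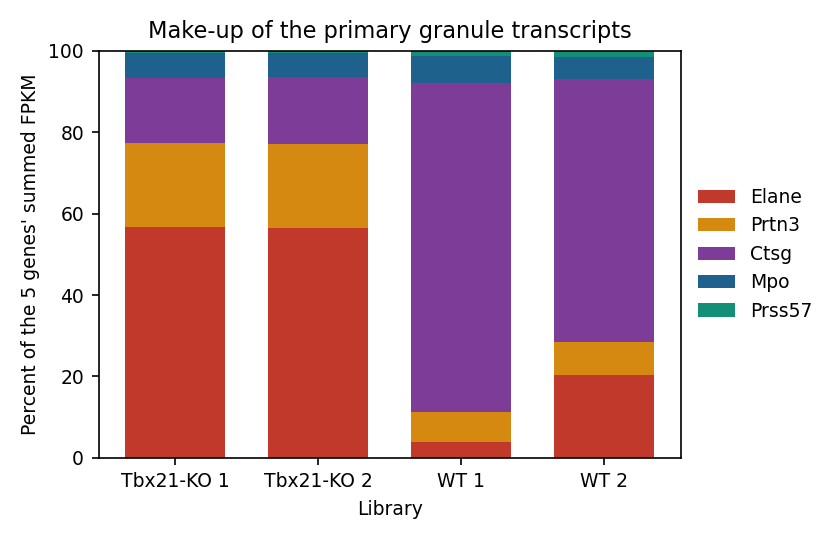
Stacked bars of each gene's percent of the 5 genes' summed FPKM, for the 4 libraries. Elane is the largest part in both Tbx21-KO libraries, at 56.8% and 56.4%, and Ctsg in both WT libraries, at 80.9% and 64.4%.

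Whether reads of other genes could enter these values was looked at in the GENCODE transcripts. None of the stretches of 31 bases in the Elane or Ctsg transcripts occurs in a transcript of another gene (0 of 954 and 0 of 1028). For Ctsg this includes the neighbouring granzymes, of which Gzmb was at 2378 and 2478 FPKM in Tbx21-KO 1 and 2, against 8940 and 9035 FPKM in WT 1 and 2. Prtn3 shared 129 of 1725 stretches with Plppr3, Mpo 416 of 3451, mostly with the antisense gene Gm11505, and Prss57 1127 of 2868 with Fstl3, these 3 genes being on the opposite strand. Gm11505 was listed at 0 in every library, and Fstl3 was at 0.35 and 0.102 FPKM in Tbx21-KO 1 and 2 and at 0.0328 and 0.0508 FPKM in WT 1 and 2. The sources used here do not say whether counting used strand.

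The Tbx21-KO libraries were close to each other. Library 1 over library 2 gave a ratio of 1.03 for Elane (95% interval of counting error 1.01 to 1.05), 1.01 for Prtn3 (0.992 to 1.04), 0.995 for Ctsg (0.964 to 1.03), 1.07 for Mpo (1.04 to 1.098) and 0.958 for Prss57 (0.866 to 1.06). The median ratio was 0.989 over the 20 secondary and tertiary granule genes and 0.985 over the 15 mature neutrophil genes with a Tbx21-KO mean of at least 5 FPKM. Over all 7184 genes at that level it was 1.00, with 0.884 at the 5% point and 1.13 at the 95% point of the ratios. Each of the 5 genes was inside that range. With 1 library on each side there is no test.

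**Figure D3:**
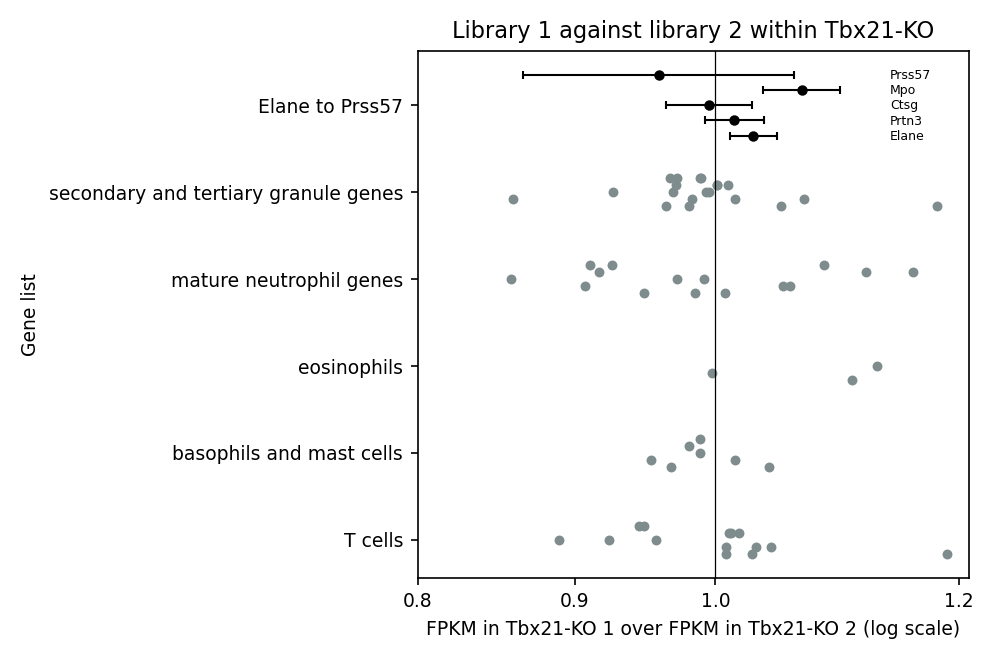
FPKM in Tbx21-KO 1 over FPKM in Tbx21-KO 2 on a log axis, for the 5 genes with 95% intervals of counting error and for the genes of 5 other lists with a Tbx21-KO mean of at least 5 FPKM. The 5 genes lie between 0.958 and 1.07.

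The genes whose levels were most like the mean of the 5 genes over the 4 libraries, by Euclidean distance on log2(FPKM + 1), were Prg2 (0.295), Camp (0.687), Gm5483 (0.869), Lcn2 (0.923) and Stfa1 (1.36). Prg2, the major basic protein of eosinophil granules, was at 199 and 200 FPKM in Tbx21-KO 1 and 2 and at 0.43 and 0.593 FPKM in WT 1 and 2. Camp, the cathelicidin precursor, and Lcn2, an iron-withholding lipocalin, belong to later neutrophil granules. The single nearest gene was Chil3 for Elane, Camp for Prtn3, Thbs1 for Ctsg, Stfa1 for Mpo and Ceacam10 for Prss57. Thbs1, thrombospondin, was at 324 and 301 FPKM in Tbx21-KO 1 and 2 and at 1.99 and 2.32 FPKM in WT 1 and 2.

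Other proteins of primary granules and their packaging were lists of their own. Of 19 such genes with a row, 18 were tested, and 17 were higher and 1 lower in Tbx21-KO, with a median log2 difference of 0.67, against a median of 0.04 over all genes tested. In WT, 17 of the 19 were already at 1 FPKM or more. Lyz2, lysozyme, was at 198 and 216 FPKM in Tbx21-KO 1 and 2, against 2.68 and 3.84 FPKM in WT 1 and 2 (log2 difference 5.62, SE 0.14, adjusted p = 2.69e-05). Prg2, the eosinophil granule protein, is counted in this list and also among the eosinophil markers, and rose by a log2 difference of 7.05. Cd63, a tetraspanin of granule membranes, rose by 3.43. Srgn, the serglycin that holds granule proteases, was at 567 and 579 FPKM in Tbx21-KO 1 and 2, against 343 and 368 FPKM in WT 1 and 2 (log2 difference 0.69, adjusted p = 0.000521).

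Lysosomal hydrolases, which azurophil granules also hold, rose less. Hexa, a lysosomal glycosidase gene, rose by 1.22 on the log2 scale, Ctsz by 1.18, Ctsb by 0.66, Gusb by 0.60 and Gaa by 0.57. Lyz1 was listed at 0 in every library. The gene that fell was Ctsc, cathepsin C, which activates the granule proteases and also the granzymes. It was at 19.5 and 20.2 FPKM in Tbx21-KO 1 and 2, against 25.3 and 25.9 FPKM in WT 1 and 2 (log2 difference -0.35, SE 0.04, adjusted p = 0.00256). With the libraries rescaled to a list of T cell receptor and signalling genes, a scaling that moves the median of all genes to 0.40, Ctsc was at 0.06 and not called.

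Of 16 genes for protease processing and the secretory lysosome, machinery that cytotoxic T cells use too, 11 were higher, 2 lower and 3 not called, with a median log2 difference of 0.43. Rab27a, a small GTPase that brings granules to the membrane, was at 54.9 and 53.7 FPKM in Tbx21-KO 1 and 2, against 33.8 and 32.8 FPKM in WT 1 and 2 (log2 difference 0.69, adjusted p = 0.000263). Ctsl, a cysteine protease, rose by 1.38. The lower genes were Ctsc and Unc13d, a priming factor for granule release named after its value was seen, at -0.14 with a call that was lost in 7 of 15 other settings. Scaled to the T cell list, 15 of the 16 were higher and 0 lower.

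Of 12 protease inhibitor genes tested, 9 were higher, 1 lower and 2 not called, with a median of 0.84. Of these 9, 4 (Stfa1, Cstb, Cst3 and Cst7) are of the cystatin family, which inhibits cysteine proteases and not the granule serine proteases. Slpi, Spink2 and Stfa1, all called higher, averaged under 1 FPKM in WT. Their Tbx21-KO values alone carried them past the filter on low values, which fixed their direction. With the filter set on the WT level instead, 6 inhibitor genes were higher and 1 lower. Serpinb1a, the intracellular inhibitor of elastase, proteinase 3 and cathepsin G, was at 74.9 and 78.1 FPKM in Tbx21-KO 1 and 2, against 15.3 and 14.9 FPKM in WT 1 and 2 (log2 difference 2.27, SE 0.04, adjusted p = 1.39e-05). Slpi, a secreted inhibitor of elastase, rose by 3.99, with a WT mean of 0.498 FPKM. Serpinb6b was the one that fell, to 45.7 ± 1.70 FPKM in Tbx21-KO, against 91.3 ± 4.43 FPKM in WT (SD, n = 2 each). Cstb, Cst3 and Cst7 rose by 1.11, 1.04 and 0.67.

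Mpo needs haem and folding in the endoplasmic reticulum. Of 14 such genes 3 were higher, 3 lower and 8 not called, with a median of -0.03. The higher genes were 21.4% of this list, against 30.1% of all genes tested. Alas1, the rate-limiting enzyme of haem synthesis, was at 63.8 and 62.0 FPKM in Tbx21-KO 1 and 2, against 3.47 and 3.75 FPKM in WT 1 and 2 (log2 difference 3.79, SE 0.05, adjusted p = 6.42e-06). Fech and Ppox, which catalyse the last steps of the pathway, rose by 0.89 and 0.63. Alad, an early enzyme, fell by 0.46, and the chaperones Hspa5 and Calr, picked with their values in view, fell by 0.27 and 0.14. The call of Calr was lost in 6 of 15 other settings and that of Hspa5 in 2. The count of lower genes was 1 without Tbx21-KO 1 and 6 with median-of-ratios scaling. Scaled to the T cell list, 12 of the 14 genes were higher and 0 lower.

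**Figure D4:**
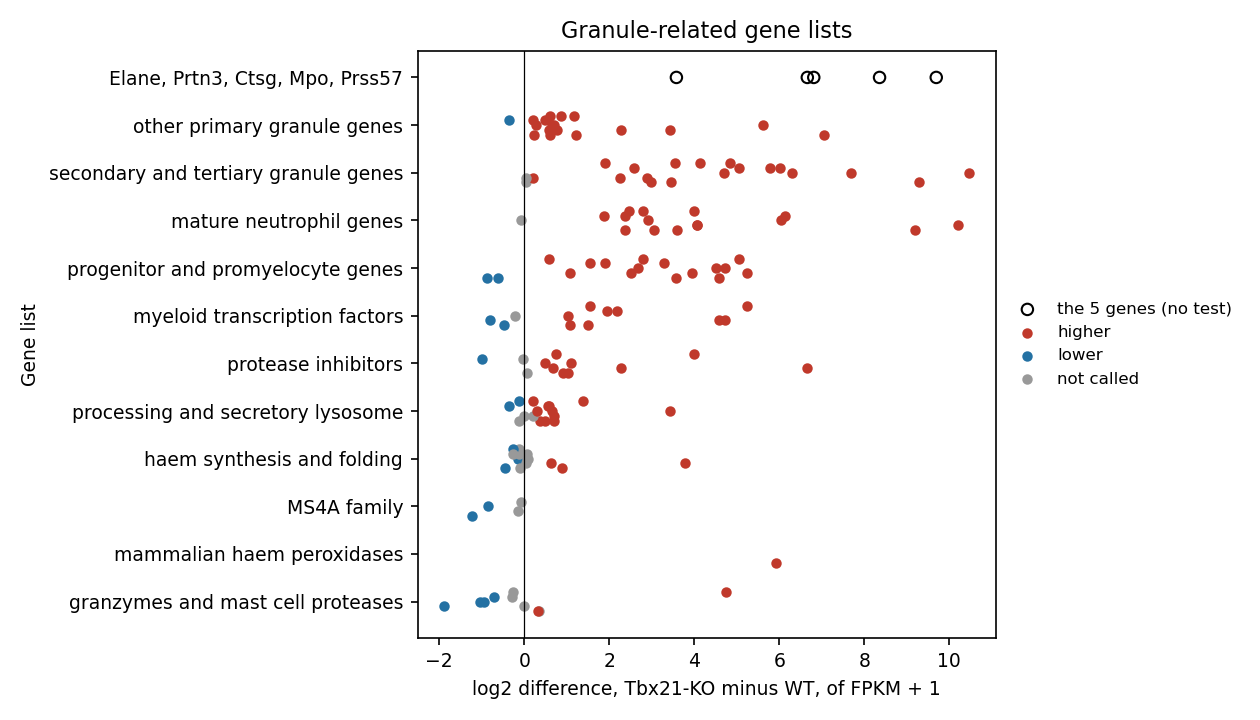
Log2 difference of each tested gene, Tbx21-KO minus WT of FPKM + 1, by list, with the 5 genes as open circles at the top. The genes called higher in the secondary and tertiary granule list reach 10.48, while the haem synthesis and folding list centres on -0.03.

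Among transcription factors known at myeloid granule promoters, 9 of 12 were higher, 2 lower and 1 not called, and 6 of the 12 had a WT mean of at least 1 FPKM. The other factors, Cebpe, Cebpa and Spi1 among them, were kept by their Tbx21-KO values, so the filter on low values fixed their direction. With the filter set on the WT level instead, 3 factors were higher and 2 lower. Cebpe, which drives the step from promyelocyte to myelocyte, was at 36.5 and 38.1 FPKM in Tbx21-KO 1 and 2, against 0 and 0.0335 FPKM in WT 1 and 2. Cebpa was at 25.7 and 26.9 FPKM in Tbx21-KO 1 and 2, against 0.213 and 0.0629 FPKM in WT 1 and 2. Spi1, which encodes PU.1, was at 34.2 and 33.1 FPKM in Tbx21-KO 1 and 2, against 0.253 and 0.384 FPKM in WT 1 and 2. Gfi1 and Myb, which T cells express too, rose by log2 differences of 1.08 and 1.54, with WT means of 15.3 and 2.83 FPKM. Irf8, a factor of monocyte and dendritic cell development that lymphocytes also express, fell to 30.3 ± 1.17 FPKM in Tbx21-KO, against 54.2 ± 1.74 FPKM in WT (SD, n = 2 each), and Cbfb, the partner of the RUNX factors, fell by 0.47, a call that scaling to the T cell list removed.

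The list of progenitor and promyelocyte genes, which shares Cebpa, Cebpe, Gfi1 and Myb with the factors, had 15 of 17 tested genes higher and 2 lower, with a median of 2.80, and 8 of its 20 genes had a WT mean of at least 1 FPKM. The other tested genes were kept by their Tbx21-KO values, which fixed their direction. With the filter set on the WT level instead, 6 genes of this list were higher and 2 lower. Fcnb, a ficolin of neutrophil precursors that is also in the next list, was at 34.5 and 35.5 FPKM in Tbx21-KO 1 and 2, against 0.15 and 0.031 FPKM in WT 1 and 2. Gstm1 rose by 4.73. The early progenitor markers Cd34 and Flt3 were low in every library. Cd34 was at 0.376 and 0.388 FPKM in Tbx21-KO 1 and 2 and at 0.0934 and 0.0227 FPKM in WT 1 and 2. Flt3 was at 0.0971 and 0.202 FPKM in Tbx21-KO 1 and 2 and at 0.0454 and 0.0604 FPKM in WT 1 and 2, and both were too low to be tested. Kit, a growth factor receptor, fell by 0.62 on the log2 scale. Cd34, Flt3 and Kit were picked with their values in view, and others went the other way. Gata2, of the same list, rose by 3.58, but its WT mean was 0.106 FPKM, so the filter fixed its direction. A separate list of stem and progenitor markers had 6 genes with a row, of which 3 were tested, 2 higher and 1 lower. It summed to 643 to 689 FPKM in Tbx21-KO and 573 to 589 FPKM in WT.

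Later granule genes were high in the same libraries. Of 20 tested secondary and tertiary granule genes, 18 were higher, 0 lower and 2 not called, with a median of 3.84 and an adjusted p from 3.11e-06 to 0.0172 among the 18. Of the 21 with a row, 7 had a WT mean of at least 1 FPKM, so most were kept by their Tbx21-KO values and their count is no support by itself. Ngp, a neutrophil granule protein, was at 3188 and 3211 FPKM in Tbx21-KO 1 and 2, against 0.918 and 1.63 FPKM in WT 1 and 2, and Camp at 225 and 242 FPKM in Tbx21-KO 1 and 2, against 0.0528 and 0.219 FPKM in WT 1 and 2. Of 16 mature neutrophil genes, 15 were higher and 1 not called, with a median of 3.33, and 7 of the 16 had a WT mean of at least 1 FPKM. The others were kept by their Tbx21-KO values, which fixed their direction. With the filter set on the WT level instead, 6 mature neutrophil genes were higher and 0 lower. S100a9, a calcium-binding protein of neutrophils, was at 3856 and 4068 FPKM in Tbx21-KO 1 and 2, above Elane in both, and at 2.38 and 2.30 FPKM in WT 1 and 2.

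Markers of other cell types moved in the same 2 libraries. The summed level of 9 basophil and mast cell markers was 387 to 394 FPKM in Tbx21-KO and 25.6 to 27.7 FPKM in WT, and of 8 tested 6 were higher and 1 lower. Only 4 of the 9 had a WT mean of at least 1 FPKM, so the other tested genes were kept by their Tbx21-KO values. The 8 eosinophil markers summed to 280 to 289 FPKM in Tbx21-KO and 0.773 to 1.03 FPKM in WT, and Ear1 was at 0 in both WT libraries. Of these 8, 4 were tested and called higher, but 0 had a WT mean of at least 1 FPKM, so the filter on low values fixed that count. The 9 monocyte and macrophage markers summed to 283 to 298 FPKM in Tbx21-KO and 195 to 197 FPKM in WT, with 6 of 6 tested higher. Of these 9 monocyte and macrophage markers, 4 had a WT mean of at least 1 FPKM, and the other tested genes were kept by their Tbx21-KO values. Csf1r, the defining receptor of that lineage, was at 1.86 and 1.69 FPKM in Tbx21-KO 1 and 2 and at 0.172 and 0.136 FPKM in WT 1 and 2. The 7 dendritic cell markers summed to 84.1 to 89.7 FPKM in Tbx21-KO and 28.2 to 29.8 FPKM in WT, with 3 of 4 tested higher. The 7 B cell markers summed to 72.0 to 75.9 FPKM in Tbx21-KO and 39.1 to 41.2 FPKM in WT, with 2 of 2 tested higher and 5 below the filter. The tested genes were Igkc, higher by 2.32, and Ighm, higher by 0.16. The call of Ighm was lost with median-of-ratios scaling and with no variance trend. Of the 6 erythroid markers 0 reached the filter. Ear1 and Csf1r were picked with their values in view.

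The T cell markers were present in every library: 14 genes summed to 742 to 767 FPKM in Tbx21-KO and 1084 to 1088 FPKM in WT, and 9 were lower, 1 higher and 4 not called. Cd3e was at 40.2 and 39.8 FPKM in Tbx21-KO 1 and 2, against 57.2 and 56.1 FPKM in WT 1 and 2. Cd3e, a chain of the T cell receptor complex, was likewise named after its values were seen. The labels call the samples T cells, and markers of T cells and of granulocyte precursors were both abundant in the Tbx21-KO libraries. The part of these markers in the levels of Elane, Prtn3, Ctsg, Mpo and Prss57 was not tested.

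Of the 43 other genes with a row within 100 kb of the 5 genes, 22 were tested, and 10 were higher, 5 lower and 7 not called. Among all genes tested, 30.1% were called higher and 23.0% lower, and the neighbour counts were not tested against these shares. Around Elane and Prtn3, whose RefSeq start sites are 6.64 kb apart, Plppr3 was higher by a log2 difference of 2.29. Ptbp1, a splicing factor, was lower by 0.54 on the log2 scale. Palm, whose start lies 2.61 kb from that of Prss57 and 92.7 kb from that of Elane, was higher by 2.36. The annotated start of Prtn3 in GENCODE lies 5.19 kb before the RefSeq start and overlaps Plppr3 by 159 bases on the opposite strand. Plppr3 was at 14.5 and 13.9 FPKM in Tbx21-KO 1 and 2, against 2.18 and 2.05 FPKM in WT 1 and 2. Cfd, complement factor D, a serine protease gene whose start lies 4.61 kb after that of Elane, was at 0.139 and 0.316 FPKM in Tbx21-KO 1 and 2 and at 0 in both WT libraries.

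Next to Ctsg lie other protease genes of the same cluster. Mcpt8, a basophil protease whose start lies 17.3 kb after that of Ctsg, was at 108 and 109 FPKM in Tbx21-KO 1 and 2, against 2.57 and 3.61 FPKM in WT 1 and 2 (log2 difference 4.76, SE 0.13, adjusted p = 3.14e-05). On the other side Gzme, 18.1 kb before the start of Ctsg, was at 166 and 181 FPKM in Tbx21-KO 1 and 2, against 193 and 223 FPKM in WT 1 and 2, and was not called. Gzmd and Gzmg were not called either, with log2 differences of -0.28 and -0.01. The outcome for Gzme changed in 6 of 15 other settings and that for Gzmd in 4, the replicate block and voom among them, so neither is shown to be unchanged. These granzymes are near-identical copies whose reads may be split between them. The mast cell protease genes Mcpt4, Mcpt2 and Mcpt1 beyond Mcpt8 were at most 0.132 FPKM in any library.

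Around Mpo, Epx, the eosinophil peroxidase, was at 73.3 and 66.1 FPKM in Tbx21-KO 1 and 2, against 0.102 and 0.242 FPKM in WT 1 and 2. Its log2 difference of 5.92 is a description only. The WT mean of Epx was 0.172 FPKM, so its Tbx21-KO values alone carried it past the filter on low values, which fixed its direction. Lpo, lactoperoxidase, which lies between Mpo and Epx, was at 0.246 and 0.106 FPKM in Tbx21-KO 1 and 2 and at 0.0256 and 0.0132 FPKM in WT 1 and 2. On the other side Tspoap1 was higher by 1.53 and Mir142b, a microRNA gene, by 1.05, where the call rests on 3 to 12 reads a library and was lost in 2 of 14 other settings.

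**Figure D5:**
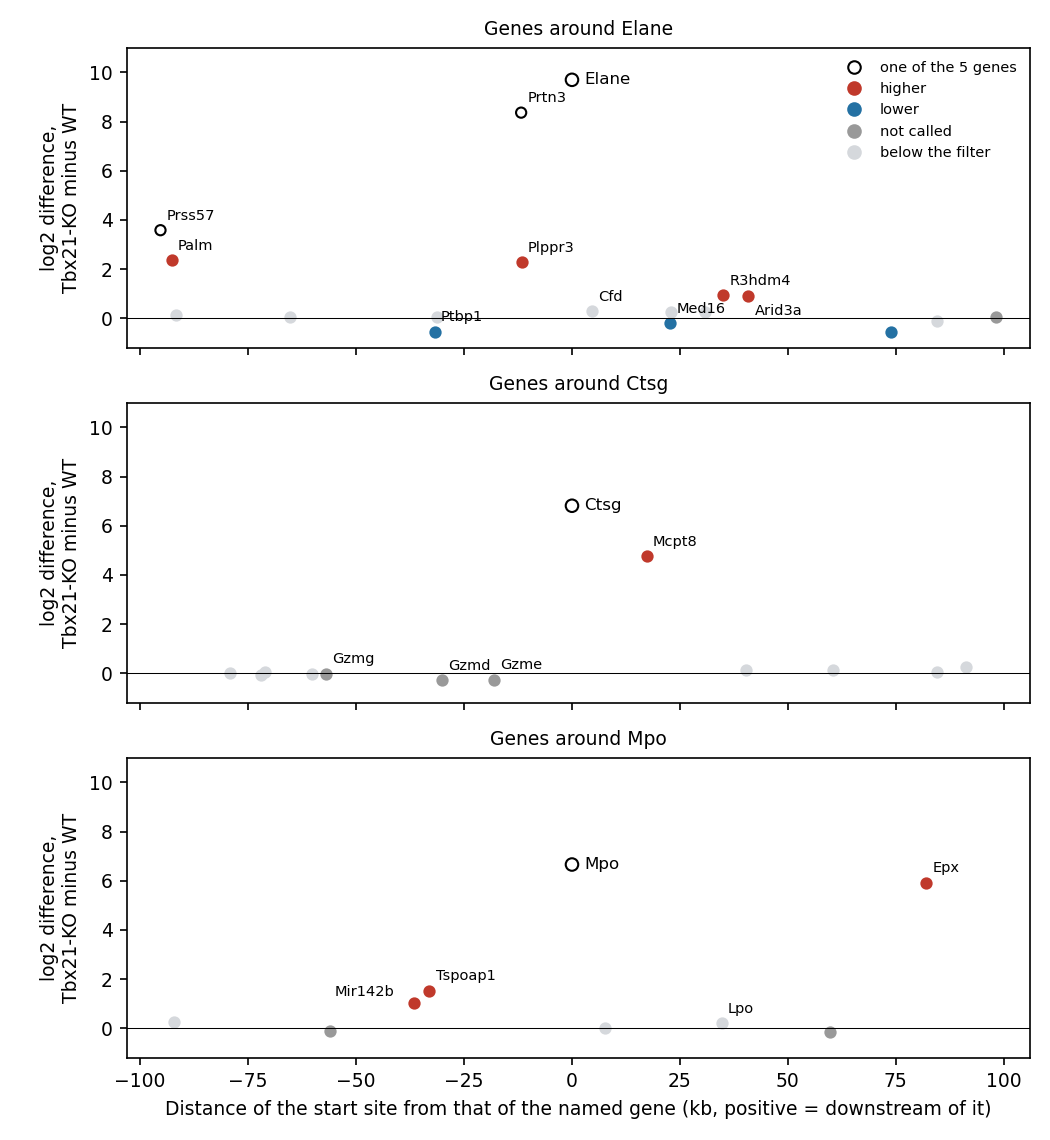
Log2 difference, Tbx21-KO minus WT of FPKM + 1, against the distance of each gene's start site in kb from that of Elane, Ctsg or Mpo. Open circles are the 5 genes, and high neighbours such as Mcpt8 at 4.76 and Epx at 5.92 stand beside genes near 0 such as Gzme. Cfd and Lpo also lie near 0, but they were below the filter and not tested, and this scale understates the change of such low genes.

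The relatives of Ms4a3 and of the proteases gave no common direction. Of 12 MS4A genes with a row, 4 were tested, 0 were higher and 2 lower. Ms4a4b, a T cell member, fell to 31.6 ± 1.77 FPKM in Tbx21-KO, against 75.5 ± 4.99 FPKM in WT (SD, n = 2 each), and Ms4a6b fell by 0.85 on the log2 scale. Of 10 tested granzyme and mast cell protease genes, 2 were higher, 4 lower and 4 not called, with Gzmb, the granzyme B of cytotoxic granules, falling by 1.89 and Gzmf rising by 0.32. Gzmm, whose start lies 102 kb after that of Prss57, was at 1.31 and 0.763 FPKM in Tbx21-KO 1 and 2, against 2.56 and 2.06 FPKM in WT 1 and 2, a call (adjusted p = 0.0214) that was lost in 4 of 14 other settings.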

How the data were processed

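RNA of 4 mouse libraries was measured, 2 labelled Tbx21-KO and 2 labelled WT. The deposited table gives FPKM values that the authors computed. The submitters' processing notes name the builds GRCm38 and mm10. The sources used here give no aligner, counter, annotation or strand setting. Of 24769 rows the last is cut short and was not used. Of the other 24768 IDs, 24720 matched GENCODE M21.

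Values were tested as log2(FPKM + 1) in genes with a mean of at least 1 FPKM with limma 3.58.1 in R 4.3.3, with a variance trend and Benjamini-Hochberg adjustment over all 11013 genes. The fit was tested on simulated data. Reads were recovered from FPKM, exon length and the implied totals. Intervals are exact at 95% and cover counting error only.

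The genes and all lists were chosen with earlier results of these data known. Named were the 5 genes, Tbx21, listed relatives, neighbours within 100 kb, in other lists the 4 largest called differences and the highest gene, and the nearest patterns; others are marked. Alternatives covered pseudocount, filter, scaling, variance trend, voom on recovered reads, replicate block and leaving out each library. Results on some listed genes are not reported here.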

Additional observations from a re-analysis of the deposited data

How the results depend on the processing

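The 5 genes were higher in Tbx21-KO in every setting that kept them. Their median log2 difference of 6.81 was 8.88 with a pseudocount of 0.1, 5.53 with a pseudocount of 5, 6.78 with median-of-ratios scaling, 6.64 after quantile normalization, 7.16 when scaled to the T cell list, 9.59 with voom on recovered reads and 6.81 to 6.82 leaving out 1 library. Of all genes, 2018 rather than 3315 were higher at a mean of at least 5 FPKM, and 3801 rather than 2531 lower after quantile normalization. Scaling to the T cell list gave 7687 higher and 614 lower. Over the 131 tested genes of the 11 granule lists, 92 were higher and 16 lower. This was 52 higher and 16 lower at a mean WT FPKM of at least 1, which leaves out genes kept only by their Tbx21-KO values. The main filter fixed the direction of those genes, so the count of 92 is no support by itself. Scaled to the T cell list, 9 genes of the granule lists were lower. Among neighbours 5 were lower, against 3 with no filter, 9 after quantile normalization, 1 when scaled to the T cell list and 3 to 5 leaving out 1 library, 3 without Tbx21-KO 2; 16 rather than 10 were higher when scaled to that list. The causes were not tested. With a replicate block, 3245 genes were higher and 2482 lower, and 90 and 18 of the granule lists. Same-numbered libraries share only a number: their deviations correlated at -0.02 across genes. WT values of 2 to 13 reads limit the folds of Elane, Prtn3, Mpo and Prss57.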

Other observations

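Some other neutrophil genes were, like Elane, higher in WT 2 than in WT 1. In WT 1 and WT 2, Chil3 had 0.564 and 1.70 FPKM, S100a8 at 0.693 and 1.73 FPKM, Ngp at 0.918 and 1.63 FPKM, and Camp at 0.0528 and 0.219 FPKM. Others were not: S100a9 had 2.38 and 2.30 FPKM in WT 1 and WT 2, Ltf at 0.163 and 0.168 FPKM, and Fcnb at 0.15 and 0.031 FPKM. Of 21 secondary and tertiary granule genes, 14 were higher and 7 lower in WT 2. The mature neutrophil list had 9 of 16 higher and 6 lower, and the other primary granule genes 11 of 19 higher and 7 lower. Of 20 progenitor and promyelocyte genes, 8 were higher and 12 lower, and of 16 protease inhibitor genes 5 were higher and 10 lower. The lists thus gave no common direction. The genes named here were chosen after their values were seen, and the difference was not tested.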
